A study of Homo sapiens with 12 samples.

Results

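Ubiquitin-conjugating enzymes (E2s) are the middle step of ubiquitination. An E1 enzyme activates ubiquitin and passes it to an E2, and the E2, together with an E3 ligase that holds the substrate, transfers it to a protein. The E2 often decides whether a single ubiquitin is attached or a chain, and through which lysine of ubiquitin the chain grows. The genes described here were taken by name from a gene expression table of K562 cells. All names made of UBE2 followed by a letter were kept, except UBE2M and UBE2F, which carry NEDD8, names of pseudogenes ending in P or in P and digits, and hyphenated names. This rule uses no measured value and leaves out E2s with other names, such as CDC34. It found 40 genes among the 61541 genes with an Ensembl identifier, of which 34 are protein-coding in GENCODE release 44.

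K562 is a cell line from a patient with chronic myeloid leukemia that carries the BCR::ABL1 fusion kinase and has erythroid features. RNA was sequenced after 12 h in 4 groups of 3 libraries. Control cells received neither drug, and the other groups received MLN4924, 0.5 µM imatinib, or 0.5 µM imatinib + 25 µM MLN4924. The study's methods state no separate dose or time for MLN4924 alone, which are taken here as 25 µM and 12 h. Imatinib blocks the ABL1 kinase, and MLN4924 blocks the E1 enzyme of NEDD8, and cullin-RING ligases are known to need NEDD8 on their cullin for full activity. The comparison of imatinib + MLN4924 with imatinib asks how the addition of MLN4924 alters the response to the kinase inhibitor. Whether a change with MLN4924 comes from the block of neddylation was not tested. All libraries come from 1 cell line, and the sources used here do not say whether the 3 libraries of a group are separate cultures, so p-values reflect how far these libraries scatter, which may be technical.

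Values are TPM, a length-scaled transcript abundance relative to the library total, as deposited by the authors. Read numbers are not kept in this unit, and the depth of the libraries is unknown. A gene was tested if 3 or more libraries reached 1 TPM, with limma on log2(TPM + 1). Log2 fold changes, their standard errors (SE) and folds below are on that scale, which understates changes of low genes, and p-values were adjusted over all 15478 genes tested, with a threshold of 0.05. The libraries had 13905 to 14937 genes at 1 TPM or more. The mitochondrially encoded share was 12.7% to 13.8% of TPM in the control and MLN4924 libraries, 17.4% to 18.2% with imatinib and 14.9% to 15.7% with imatinib + MLN4924. The erythroid genes GATA1 (127 to 206 TPM) and HBG1 (4314 to 12736 TPM) were high in every library, and MS4A1, ELANE and CDH5, which mark B cells, neutrophils and endothelium, were listed at 0 in every library. The pan-leukocyte gene PTPRC (25.1 to 56.2 TPM) and the epithelial gene EPCAM (25.0 to 46.8 TPM) were present in all libraries. For 22 of the 31 E2 genes tested, replicate 3 was the imatinib library closest to the control mean. In the imatinib + MLN4924 group the counts were nearly even, with replicates 1, 2 and 3 the closest for 8, 11 and 12 genes. Counts that change without a library are given beside the results.

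Of the 40 genes, 31 passed the limit on low values and 9 did not. UBE2DNL, UBE2L2, UBE2NL, UBE2Q2P4Y, UBE2Q2P5Y, UBE2QL1 and UBE2U were listed at 0 in all 12 libraries, UBE2L5 reached at most 0.07 TPM, and UBE2L4, a processed pseudogene, reached at most 1.84 TPM. Of the 31 genes tested, 30 are protein-coding, the exception being UBE2Q2L.

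Upstream sequences are shown for genes that fell together with imatinib. These are UBE2S, UBE2N, UBE2D1 and UBE2G2, the 4 with the largest falls, and UBE2T. Among the 23 genes with a window to search, UBE2T was the only one with a match to the cell cycle homology region. Each is the 250 bases before the RefSeq start (GRCh38.p14), written 5′ to 3′ on the gene's strand, in lower case. GENCODE places the gene start at the same base for UBE2S and UBE2N, and inside the window for UBE2G2 (6 bases upstream of the RefSeq start), UBE2D1 (27 bases) and UBE2T (48 bases), so the distances of their motifs hold for the RefSeq start only. Capitals mark a CCAAT box (CCAAT, or ATTGG on the other strand), a cAMP response element (TGACGTCA), an ETS motif (CCGGAAG), a STAT motif (TTCNNNGAA) or a cell cycle homology region (TTTGAA).
UBE2S, chr19:55407789-55408038, minus strand: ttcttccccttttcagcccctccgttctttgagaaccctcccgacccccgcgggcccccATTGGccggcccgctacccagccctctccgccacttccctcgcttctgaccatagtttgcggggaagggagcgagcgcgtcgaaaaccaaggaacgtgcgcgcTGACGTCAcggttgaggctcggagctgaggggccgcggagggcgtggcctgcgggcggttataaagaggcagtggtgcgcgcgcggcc
UBE2N, chr12:93441948-93442197, minus strand: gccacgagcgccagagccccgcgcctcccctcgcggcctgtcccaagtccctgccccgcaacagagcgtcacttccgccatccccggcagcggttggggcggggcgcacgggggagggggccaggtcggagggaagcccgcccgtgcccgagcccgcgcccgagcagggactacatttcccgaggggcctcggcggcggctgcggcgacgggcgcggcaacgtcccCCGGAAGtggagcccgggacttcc
UBE2D1, chr10:58334756-58335005, plus strand: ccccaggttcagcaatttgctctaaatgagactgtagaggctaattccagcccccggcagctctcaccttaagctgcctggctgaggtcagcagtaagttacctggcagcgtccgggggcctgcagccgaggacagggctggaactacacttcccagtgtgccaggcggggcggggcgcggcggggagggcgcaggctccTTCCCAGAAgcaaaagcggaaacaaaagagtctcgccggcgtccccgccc
UBE2G2, chr21:44801821-44802070, minus strand: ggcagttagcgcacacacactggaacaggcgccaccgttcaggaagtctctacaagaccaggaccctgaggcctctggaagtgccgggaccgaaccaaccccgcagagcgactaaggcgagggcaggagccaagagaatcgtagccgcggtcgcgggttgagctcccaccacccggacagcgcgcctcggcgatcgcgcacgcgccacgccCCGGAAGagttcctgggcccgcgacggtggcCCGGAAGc
UBE2T, chr1:202341937-202342186, minus strand: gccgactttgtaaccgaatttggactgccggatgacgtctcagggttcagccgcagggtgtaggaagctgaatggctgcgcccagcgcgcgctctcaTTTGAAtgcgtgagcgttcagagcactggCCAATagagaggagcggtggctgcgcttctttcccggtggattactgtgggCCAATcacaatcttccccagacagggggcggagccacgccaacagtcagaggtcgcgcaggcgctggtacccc

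In the UBE2S window the cAMP response element began 88 bases before the start and the CCAAT box 191 bases before it. The UBE2N window had an ETS motif 24 bases before the start. The UBE2G2 window had ETS motifs 39 and 8 bases before it. The UBE2D1 window had a STAT motif at 50 bases, and the UBE2T window had CCAAT boxes at 124 and 73 bases and a cell cycle homology region at 153 bases. These are matches of letters, not measured binding sites. Both strands were searched for 10 motifs in the 250 bases before the start, and 23 of the 31 genes tested had a window (35 windows in all, as a gene can have several). UBE2H, UBE2B, UBE2C, UBE2Q1, UBE2Q2L, UBE2V2 and UBE2W were among those with no window. A cAMP response element was found for 1 of the 23 genes and in 1.6% of all 35116 windows. ETS motifs were found for 5 genes and in 8.5% of windows, STAT motifs for 2 genes and in 6.6%, CCAAT boxes for 7 genes and in 32.0%, and cell cycle homology regions for 1 gene and in 13.3%. The other motifs were the E-box CACGTG (0 genes, 6.3% of windows), the antioxidant response element core TGACNNNGC (4 genes, 10.9%), the GATA motif AGATAA (1 gene, 9.2%), the interferon-stimulated response element (1 gene, 3.0%) and the GC box GGGCGG (20 genes, 42.6%), and they are not capitalised. The cAMP response element and the antioxidant core share their first 4 letters but differ after them, so no stretch matches both in full. Genes and windows are counted differently here, so these shares give the background only. Besides the genes printed, ETS motifs were found for UBE2V1, which rose with imatinib, UBE2E3, which was not called, and UBE2J2, which fell. The other gene with a STAT motif was UBE2D3, which was not called. UBE2G1, with a fall close to that of UBE2G2, had GC boxes only. Whether any motif goes with the falls was not tested.

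In control cells the E2 genes covered a wide range of levels. On the TPM scale, 12 genes had a control mean of 100 or more, 13 lay from 10 to under 100, and 6 were under 10. UBE2L3, the E2 dedicated to HECT and RBR ligases, which take ubiquitin onto their own cysteine, was the most abundant at 324 ± 11.8 TPM (mean ± SD, n = 3, as for all such values below). UBE2D3, a broadly acting E2 that serves many RING ligases, followed at 275 ± 9.23 TPM, and these means differed by more than either SD. UBE2N (154 ± 11.7 TPM), UBE2E1 (147 ± 14.9 TPM), UBE2V1 (145 ± 10.1 TPM) and UBE2G2 (141 ± 2.90 TPM) came next, and neighbours among these 4 differed by less than the larger of their SDs. UBE2S had the largest control SD in TPM, 137 ± 60.1 TPM, with libraries at 149, 189.6 and 71.4 TPM. At the low end stood UBE2W (3.72 ± 0.934 TPM), UBE2Q2L (3.40 ± 1.60 TPM), UBE2E2 (1.76 ± 0.380 TPM) and UBE2C (0.720 ± 0.581 TPM).

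UBE2C and UBE2S are the E2s of the anaphase-promoting complex (APC/C), the ligase that drives exit from mitosis, where UBE2C places the first ubiquitins and UBE2S extends the chains. Their listed values differed widely. UBE2C was between 0.25 and 2.1 TPM in all 12 libraries and was called in no comparison, while CDC20, which activates the complex, lay between 117 and 194 TPM and the mitotic cyclin CCNB1 between 191 and 310 TPM. At such low values a change in UBE2C would be hard to see, and whether the listed values hold all of its reads cannot be told from the deposited table.

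**Figure D1:**
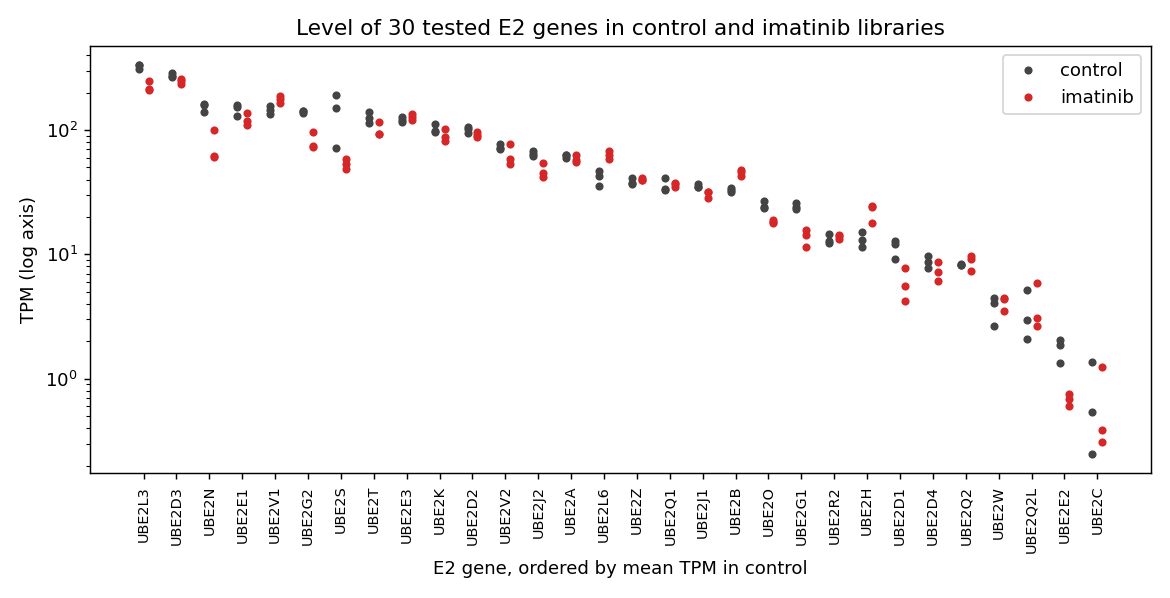
TPM (log axis) of 30 E2 genes tested, ordered by control mean, with 1 point for each of 3 control and 3 imatinib libraries per gene. Control means run from 324 TPM for UBE2L3 to 0.720 TPM for UBE2C, and the imatinib points of UBE2S, UBE2N, UBE2G2, UBE2G1 and UBE2D1 lie below their control points.

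Imatinib alone lowered 13 of the 31 E2 genes and raised 4. The falls were led by UBE2S, UBE2N, UBE2D1, UBE2G2 and UBE2G1, at 1.73- to 2.35-fold, and the rises were UBE2H, UBE2L6, UBE2B and UBE2V1. Over all genes tested, 27.5% were lower and 26.3% were higher with imatinib, against 41.9% and 12.9% of the E2 genes. In either direction the share of E2 genes called, 54.8%, was close to the 53.8% of all genes. The median log2 fold change was -0.18 over the E2 genes and 0.02 over all genes. With the limit at 5 TPM in 3 libraries, 3965 of 11118 genes were lower and 2914 higher, with a median of -0.07. Genes with higher levels thus also leaned lower, and how far this accounts for the E2 shares was not tested. In bulk RNA, a change in the share of cells in a given state and a change in the RNA per cell cannot be told apart. The summed E2 level was 2384 ± 90.7 TPM in control and 1961 ± 132 TPM with imatinib. The mitochondrially encoded share, higher with imatinib as given above, also takes part of each library's total, and its part in these values was not tested. With median-of-ratios scaling the same 17 genes were called.

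UBE2S (ENSG00000108106, chromosome 19, bases 55399745 to 55407788, minus strand) had control values of 149, 189.6 and 71.4 TPM and imatinib values of 48.3, 53.0 and 58.9 TPM. All imatinib libraries were below all control libraries, although replicate 3 of the control was close to them. The log2 fold change was -1.23 (SE 0.30, 2.35-fold lower, adjusted p = 0.00457). Without control replicate 3 the log2 fold change was -1.64, and without control replicate 2 it was -0.94, and it stayed past the threshold in all 12 alternatives.

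UBE2N (ENSG00000177889, chromosome 12, bases 93405673 to 93441947, minus strand) builds a chain type that serves signalling and DNA repair more than degradation, together with UBE2V1 or UBE2V2, E2 variants that lack the catalytic cysteine. Its values were 163, 159 and 141 TPM in control and 61.9, 60.5 and 99.8 TPM with imatinib. The groups did not overlap, and replicate 3 was the highest imatinib library. This made the level 2.12-fold lower (log2 fold change -1.08, SE 0.17, adjusted p = 0.000242). UBE2V1 (ENSG00000244687, chromosome 20, bases 50081124 to 50115959, minus strand) went the other way, from 155, 146 and 135 TPM to 179, 188 and 165 TPM, again without overlap. On the log2 scale the difference was 0.28 (SE 0.08, 1.22-fold higher, adjusted p = 0.00929). UBE2V1 shares sequence with a readthrough transcript, PEDS1-UBE2V1, listed separately at 2.85 to 9.50 TPM, and reads of the shared exons can be assigned to either. UBE2V2, the other variant, lay at 73.2 ± 4.21 TPM in control and 63.3 ± 12.8 TPM with imatinib, and was not called (log2 fold change -0.22, 95% interval -0.49 to 0.04, adjusted p = 0.143).

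UBE2D1 (ENSG00000072401, chromosome 10, bases 58334979 to 58370751, plus strand) belongs to the broadly acting UBE2D enzymes, of which UBE2D4 alone was lower in control. It had 9.20, 12.8 and 12.1 TPM in control and 4.21, 5.62 and 7.73 TPM with imatinib, without overlap. In the fit, the mean was 1.83-fold lower (log2 fold change -0.87, SE 0.17, adjusted p = 0.00114). UBE2D3 (ENSG00000109332, chromosome 4, bases 102794383 to 102868896, minus strand), the most abundant of them, was 285, 268 and 271 TPM in control and 234, 249.9 and 258 TPM with imatinib. Its groups did not overlap either, but the difference did not pass (log2 fold change -0.15, 95% interval -0.29 to -0.01, adjusted p = 0.0685), and it did without imatinib replicate 3. UBE2D2 and UBE2D4 were not called, with log2 fold changes of -0.14 and -0.22. Among the related UBE2E enzymes, which carry an extension at the amino terminus, UBE2E1 (log2 fold change -0.28, adjusted p = 0.0438) and UBE2E2 (-0.71, adjusted p = 0.0208) fell, and UBE2E3 was not called (0.08, adjusted p = 0.429). The UBE2E1 call held in 5 of 12 alternatives and the UBE2E2 call in 8 of the 11 in which it was tested.

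UBE2G1 (ENSG00000132388, chromosome 17, bases 4269259 to 4366675, minus strand) extends degradative ubiquitin chains on substrates of cullin-RING ligases. Its values were 24.0, 26.1 and 23.2 TPM in control and 11.5, 14.3 and 15.7 TPM with imatinib, without overlap. The difference amounted to -0.79 on the log2 scale (SE 0.11, 1.73-fold lower, adjusted p = 0.000159). UBE2R2, which also serves cullin-RING ligases, was at 13.2 ± 1.13 TPM and 13.9 ± 0.639 TPM and was not called (log2 fold change 0.07, 95% interval -0.13 to 0.27). Its close relative CDC34, the E2 also called UBE2R1, rose by 0.32 on the log2 scale (SE 0.09, adjusted p = 0.0092). UBE2K, which also extends degradative chains, was not called (log2 fold change -0.18, adjusted p = 0.178).

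UBE2G2 (ENSG00000184787, chromosome 21, bases 44768580 to 44801826, minus strand) works with ligases of the endoplasmic reticulum in the degradation of misfolded proteins. Control libraries had 141, 137 and 143 TPM and imatinib libraries 74.0, 72.4 and 96.4 TPM, without overlap. With limma, the log2 fold change was -0.80 (SE 0.10, 1.74-fold lower, adjusted p = 6.77e-05). UBE2J1 and UBE2J2, which are anchored in the membrane of that organelle, fell too, UBE2J2 by 0.45 on the log2 scale (adjusted p = 0.00139) and UBE2J1 by 0.20 (adjusted p = 0.0322). All 3 genes of this branch were thus lower, but the UBE2J1 call held in only 7 of 12 alternatives.

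UBE2L3 (ENSG00000185651, chromosome 22, bases 21549447 to 21624034, plus strand) had 331, 331 and 311 TPM in control and 209, 215 and 249.8 TPM with imatinib, without overlap. The log2 fold change was -0.53 (SE 0.09, 1.45-fold lower, adjusted p = 0.000424). UBE2L6 (ENSG00000156587, chromosome 11, bases 57551656 to 57568284, minus strand), its relative, mainly carries ISG15, a ubiquitin-like modifier induced by interferon. It rose from 35.4, 46.9 and 43.1 TPM to 62.9, 67.5 and 58.1 TPM, and every imatinib library was above every control library. This made the level 1.5-fold higher (log2 fold change 0.58, SE 0.11, adjusted p = 0.000958). The E1 of ISG15, UBA7, was not called (log2 fold change 0.45, adjusted p = 0.173), and neither was ISG15 (-0.18, adjusted p = 0.267). UBA7 was low, with means of 0.74 TPM in control and 1.32 TPM with imatinib, so a change in it would be hard to see.

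UBE2T, which ubiquitinates FANCD2 and FANCI in the Fanconi anaemia pathway of DNA crosslink repair, fell by 0.34 on the log2 scale (SE 0.09, adjusted p = 0.00937), from 127 ± 13.5 TPM to 100.05 ± 13.2 TPM. This fall was smaller than those of UBE2N or UBE2G2 but held in all 12 alternatives.

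UBE2H and UBE2O are E2s associated with erythroid maturation, UBE2H as the partner of the CTLH ligase and UBE2O as an enzyme that, in mouse reticulocytes, marks ribosomal proteins for removal. With imatinib they moved in opposite directions. UBE2H (ENSG00000186591, chromosome 7, bases 129830732 to 129952960, minus strand) was 11.4, 13.0 and 15.0 TPM in control and 24.6, 24.1 and 18.0 TPM with imatinib, without overlap. On the log2 scale the difference was 0.71 (SE 0.14, 1.64-fold higher, adjusted p = 0.00134). UBE2O fell by 0.41 on the log2 scale (SE 0.07, adjusted p = 0.000372), from 24.9 ± 1.77 TPM to 18.4 ± 0.507 TPM. In the same libraries, the erythroid gene HBZ was higher (1662 to 1778 TPM in control, 9644 to 14691 TPM with imatinib), and the part of that change in the E2 values was not tested.

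UBE2A and UBE2B are the pair of human homologues of yeast RAD6, which ubiquitinate histone H2B, PCNA and substrates of the N-degron pathway. UBE2B (ENSG00000119048, chromosome 5, bases 134371184 to 134392108, plus strand) was 31.7, 33.1 and 34.5 TPM in control and 47.4, 42.8 and 46.3 TPM with imatinib, so that all imatinib libraries were above control. In the fit, the mean was 1.36-fold higher (log2 fold change 0.45, SE 0.06, adjusted p = 0.000111). UBE2A (ENSG00000077721, chromosome X, bases 119474802 to 119591083, plus strand) was 59.4, 63.1 and 63.1 TPM in control and 55.8, 57.3 and 63.4 TPM with imatinib, and its groups overlapped (log2 fold change -0.07, 95% interval -0.22 to 0.08, adjusted p = 0.405). UBE2W, UBE2Z, UBE2Q1, UBE2Q2 and UBE2Q2L were not called.

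**Figure D2:**
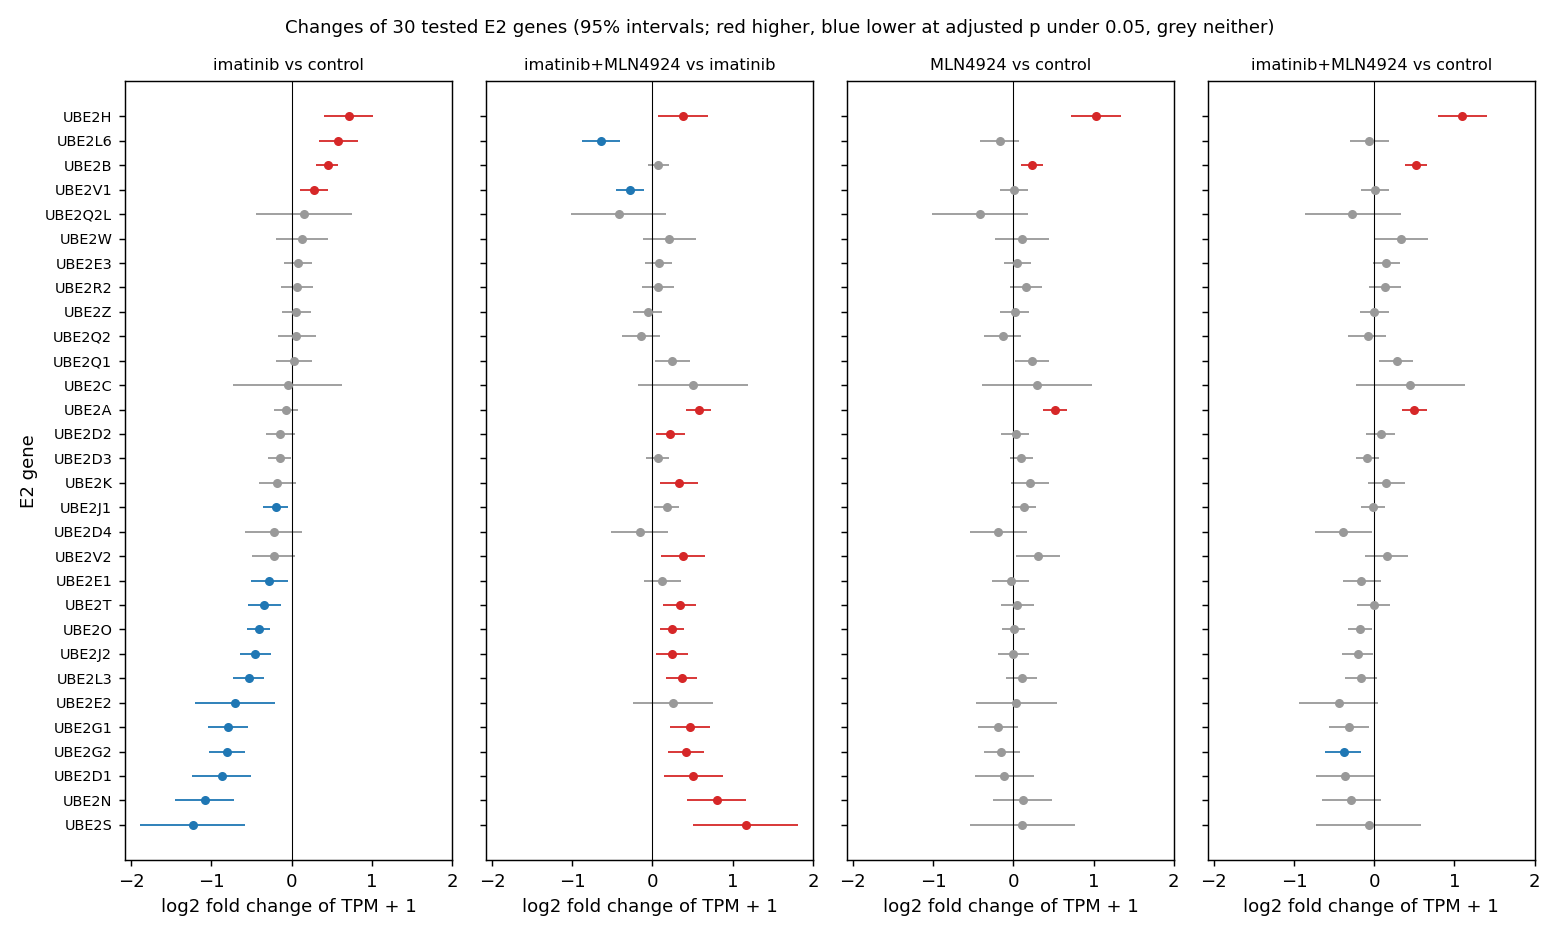
Log2 fold changes on the log2(TPM + 1) scale with 95% intervals for 30 E2 genes, in panels for imatinib against control, imatinib + MLN4924 against imatinib, MLN4924 against control and imatinib + MLN4924 against control, with 3 libraries a group and genes past the threshold in red (higher) or blue (lower) and the others in grey. The first panel has 12 genes called lower and 4 called higher, the second 14 higher and 2 lower, and the last pair of panels 3 and 4 calls.

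Addition of MLN4924 to imatinib raised 15 of the 31 E2 genes and lowered 2, UBE2L6 and UBE2V1. The largest rises were UBE2S, UBE2N, UBE2A, UBE2D1 and UBE2G1. Over all genes tested, 22.6% were higher and 20.5% were lower, and 43.0% were called in either direction, against 48.4%, 6.45% and 54.8% of the E2 genes. The median log2 fold change was 0.25 over the E2 genes and 0.00 over all genes. With the limit at 5 TPM in 3 libraries, 3313 of 11118 genes were higher and 2397 lower, with a median of 0.07. Genes with higher levels thus also leaned higher here, and their part in the E2 shares was not tested. This comparison shares its imatinib libraries with the comparison of imatinib with control, so an imatinib library with a chance high or low value pushes both in opposite directions. The mitochondrially encoded share was lower than with imatinib, as given above, and its part in these values was not tested. The count was 11 without imatinib replicate 1, 9 without imatinib replicate 2 and 11 without imatinib + MLN4924 replicate 3, and 9 calls, among them those of UBE2A, UBE2G1, UBE2G2, UBE2L3, UBE2L6, UBE2N, UBE2O and UBE2S, held in all 12 alternatives.

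UBE2S was 107, 96.3 and 168 TPM with imatinib + MLN4924, above all imatinib libraries and within the range of the control. The difference amounted to 1.16 on the log2 scale (SE 0.30, 2.24-fold higher, adjusted p = 0.00903). UBE2N was 113, 118 and 149.6 TPM, above all imatinib libraries. With limma, the log2 fold change was 0.80 (SE 0.17, 1.74-fold higher, adjusted p = 0.00296). Against control, neither was called, with log2 fold changes of -0.07 (95% interval -0.73 to 0.58) for UBE2S and -0.29 (-0.65 to 0.08) for UBE2N. The UBE2S interval was the wider of the pair.

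UBE2G1 was 17.4, 19.8 and 21.4 TPM with imatinib + MLN4924, between the imatinib and the control values with no overlap on either side. The log2 fold change was 0.47 (SE 0.11, 1.39-fold higher, adjusted p = 0.00641). UBE2G2 was 104, 99.9 and 120.0 TPM, also between both, and all 4 groups of UBE2G2 were apart from each other. This made the level 1.34-fold higher (log2 fold change 0.42, SE 0.10, adjusted p = 0.00678). Its level stayed below control, with a log2 fold change of -0.38 (SE 0.10, adjusted p = 0.0181), the only E2 called lower in that comparison, and this call was lost without control replicate 3, imatinib + MLN4924 replicate 1 or imatinib + MLN4924 replicate 2. UBE2D1 was 8.16, 8.75 and 8.80 TPM, above the imatinib and below the control libraries. On the log2 scale the difference was 0.51 (SE 0.17, 1.43-fold higher, adjusted p = 0.0295), and the call held in 5 of 12 alternatives.

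UBE2L3 was 265, 274 and 332 TPM with imatinib + MLN4924, above all imatinib libraries. In the fit, the mean was 1.29-fold higher (log2 fold change 0.37, SE 0.09, adjusted p = 0.00662). UBE2L6 was 43.1, 40.9 and 35.9 TPM, below all imatinib libraries and within the control range. The difference amounted to -0.64 on the log2 scale (SE 0.11, 1.56-fold lower, adjusted p = 0.000958). UBE2V1 was 146, 138 and 155 TPM, again below all imatinib libraries and within the control range. With limma, the log2 fold change was -0.28 (SE 0.08, 1.21-fold lower, adjusted p = 0.0145), lost without imatinib replicate 2 or imatinib + MLN4924 replicate 2.

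Smaller rises were those of UBE2V2 (0.38 on the log2 scale), UBE2T (0.34), UBE2K (0.33), UBE2J2 (0.25), UBE2O (0.24) and UBE2D2 (0.22). Among them UBE2O held in all 12 alternatives, UBE2T in 10, UBE2K and UBE2V2 in 6, and UBE2D2 and UBE2J2 in 5. UBE2H was 29.2, 30.9 and 27.2 TPM, above all imatinib libraries. Its log2 fold change of 0.38 (SE 0.14, adjusted p = 0.0466) was called in 3 of 12 alternatives. UBE2B was 48.4, 49.1 and 46.3 TPM, overlapping imatinib, and was not called (log2 fold change 0.07, 95% interval -0.06 to 0.21).

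**Figure D3:**
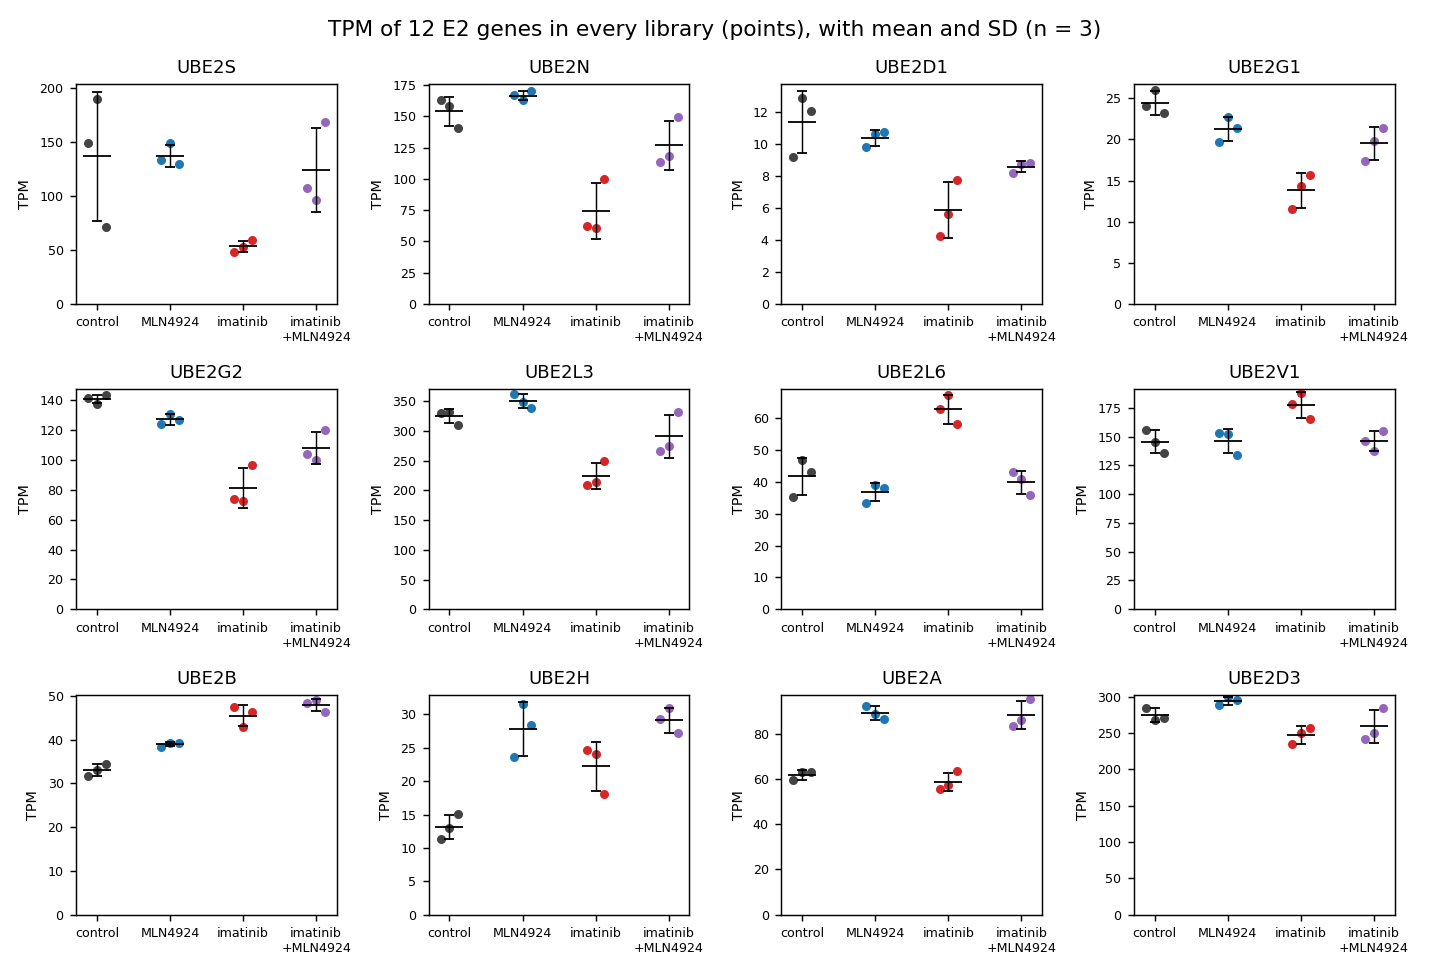
TPM in each of the 12 libraries (points) with the mean and SD of each group of 3 for 12 E2 genes, one panel per gene with its own axis from 0. UBE2G2 falls into 4 separate groups, UBE2A is high in both groups with MLN4924, and UBE2L6 and UBE2V1 are high with imatinib alone.

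MLN4924 alone changed few E2 genes. UBE2H, UBE2A and UBE2B were higher than control and none was lower, so 9.68% of the E2 genes were called, against 14.5% of all genes tested. By direction, 7.36% of all genes were higher and 7.11% lower. The median log2 fold change was 0.05 over the E2 genes and 0.00 over all genes, and 5 E2 genes had an unadjusted p under 0.05.

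UBE2H was 23.6, 31.6 and 28.4 TPM with MLN4924, above all control libraries. The log2 fold change was 1.03 (SE 0.14, 2.04-fold higher, adjusted p = 0.000808). UBE2A was 92.2, 88.8 and 86.3 TPM, also above all control libraries. This made the level 1.43-fold higher (log2 fold change 0.52, SE 0.07, adjusted p = 0.000719). UBE2B was 38.4, 39.3 and 39.2 TPM, apart from control by a smaller step. On the log2 scale the difference was 0.23 (SE 0.06, 1.17-fold higher, adjusted p = 0.028), and this call was lost without control replicate 1 or 2 or without any 1 of the MLN4924 libraries. The genes that led the falls with imatinib had values near control here. UBE2S was 133, 149 and 129.5 TPM, within the control range, and UBE2N was 167, 163 and 170.2 TPM, just above it. Their log2 fold changes were 0.11 (95% interval -0.54 to 0.77) and 0.12 (-0.25 to 0.48). The remaining genes given per library were also not called, with UBE2D1 at 9.81, 10.6 and 10.7 TPM, UBE2D3 at 288, 299 and 295 TPM and UBE2L3 at 362, 348 and 339 TPM. For UBE2D3 and UBE2L3 all MLN4924 libraries were above all control libraries, and for UBE2D1 they were within the control range. UBE2L6 was 33.5, 38.9 and 38.0 TPM and UBE2V1 153, 152 and 134 TPM, both overlapping control. UBE2G1 was 19.7, 22.7 and 21.4 TPM and UBE2G2 124, 131 and 126 TPM, both below all control libraries, without passing the test (log2 fold changes -0.19 and -0.15, adjusted p = 0.311 and 0.397).

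Against control, imatinib + MLN4924 left 4 of the 31 E2 genes called, 3 higher and 1 lower, or 12.9%, against 26.2% of all genes tested (12.2% higher and 13.9% lower). UBE2H had the largest difference. In the fit, the mean was 2.14-fold higher (log2 fold change 1.10, SE 0.14, adjusted p = 0.000323). The difference of UBE2B amounted to 0.52 on the log2 scale (SE 0.06, 1.44-fold higher, adjusted p = 0.00018). UBE2A was 83.2, 86.2 and 95.2 TPM, above all control libraries. With limma, the log2 fold change was 0.50 (SE 0.07, 1.42-fold higher, adjusted p = 0.000469). These 3 calls held in all 12 alternatives, and the count was 7 without imatinib + MLN4924 replicate 3. UBE2D3 was 242, 250.5 and 285 TPM and was not called. Against MLN4924 alone, UBE2B was the only gene called, or 3.23% of the E2 genes against 16.2% of all genes tested. The log2 fold change was 0.29 (SE 0.06, 1.22-fold higher, adjusted p = 0.0108), held in all 12 alternatives, and the count was 3 without imatinib + MLN4924 replicate 3. By direction, 7.73% of all genes were higher and 8.48% lower. In that comparison 7 E2 genes had an unadjusted p under 0.05. The comparisons of imatinib + MLN4924 with control, with imatinib and with MLN4924 share the same 3 libraries.

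The interaction asks whether the effect of MLN4924 differed with and without imatinib. It was called for 3 E2 genes, 9.68% of them, against 16.4% of all genes tested (9.06% with a positive and 7.35% with a negative term), and 10 had an unadjusted p under 0.05. UBE2G1 and UBE2G2 had values below control with MLN4924 alone, without passing the test, and rose with it in the presence of imatinib, with interaction terms of 0.67 and 0.57 on the log2 scale. UBE2H was raised more by MLN4924 alone than on top of imatinib, with a term of -0.64. The UBE2G1 term was past the threshold in 16 of 17 alternatives, the UBE2G2 term in 11 and the UBE2H term in 5. UBE2S had a larger term of 1.05 but a wide 95% interval of 0.12 to 1.97 (adjusted p = 0.108). UBE2N (0.68, 95% interval 0.16 to 1.20, adjusted p = 0.0695) and UBE2D1 (0.62, 0.10 to 1.15, adjusted p = 0.0943) were not called either. Their terms were close in size to those of UBE2G1 and UBE2G2. The count was 9 without imatinib replicate 3, and 1 without MLN4924 replicate 3, imatinib replicate 1, imatinib replicate 2 or imatinib + MLN4924 replicate 3.

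Ratios of genes within a library do not depend on the library total. The 3 pairs below were chosen after their values were seen and are given as a description, with no test. UBE2V1 to UBE2N, the inactive variant to its catalytic partner, was 0.955, 0.917 and 0.961 in control and 0.915, 0.932 and 0.787 with MLN4924. It was 2.88, 3.10 and 1.66 with imatinib and 1.29, 1.16 and 1.04 with imatinib + MLN4924. The ratio was thus highest with imatinib alone, and replicate 3 was the lowest library of that group. UBE2A to UBE2B was 1.87, 1.91 and 1.83 in control, 2.40, 2.26 and 2.20 with MLN4924, 1.18, 1.34 and 1.37 with imatinib and 1.72, 1.76 and 2.06 with imatinib + MLN4924. This ratio was highest with MLN4924 and lowest with imatinib, and those groups did not overlap with control. UBE2G1 to UBE2R2 was 1.95, 1.80 and 1.80 in control, 1.27, 1.48 and 1.55 with MLN4924, 0.870, 0.991 and 1.10 with imatinib and 1.22, 1.43 and 1.32 with imatinib + MLN4924. It was lower than control in all 9 treated libraries.

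**Figure D4:**
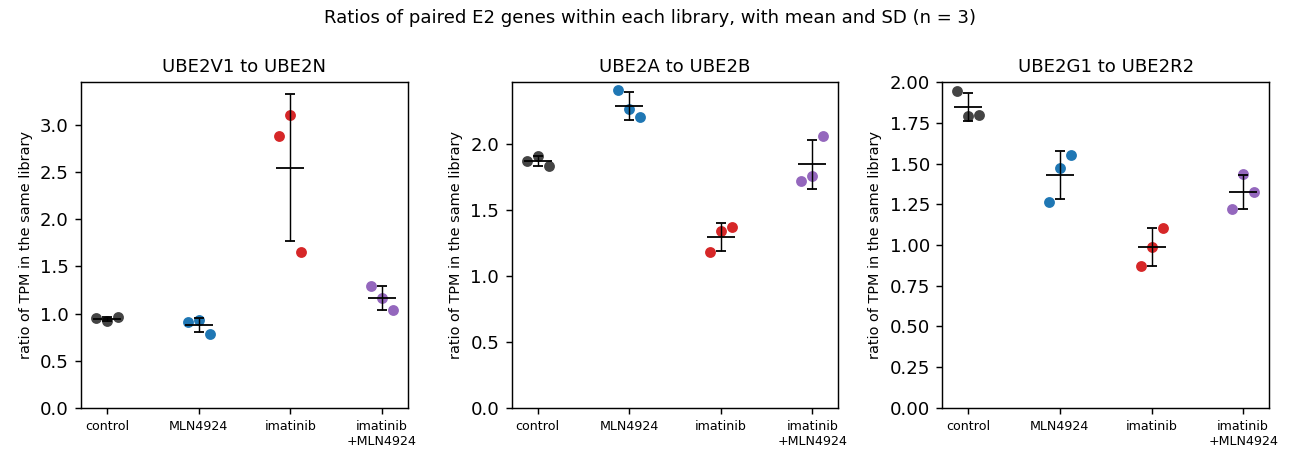
Ratios of TPM within each library for UBE2V1 to UBE2N, UBE2A to UBE2B and UBE2G1 to UBE2R2, with 1 point per library and 3 libraries per group. UBE2V1 to UBE2N is 1.66 to 3.10 with imatinib and 0.917 to 0.961 in control.

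Genes that work with the E2s were followed in lists of known partners, which were chosen with earlier results of these data known. The counts below are of genes past the threshold with imatinib against control, then with imatinib + MLN4924 against imatinib, comparisons that share the imatinib libraries. Medians are of the log2 fold changes over the genes tested in a list, in the same order, and over all genes they were 0.02 and 0.00. Of all genes tested, 26.3% were higher and 27.5% lower with imatinib, then 22.6% were higher and 20.5% lower, and the counts stand against these shares. Of 5 E1 genes of ubiquitin, SUMO and ISG15, 4 were lower with imatinib and none higher, then 2 were higher and none lower (medians -0.36, then 0.04). UBA1, the main ubiquitin E1, fell by 0.25 on the log2 scale (adjusted p = 0.00301), and its log2 fold change on adding MLN4924 was 0.04. UBA6, a second ubiquitin E1, fell by 0.74 (adjusted p = 0.00361) and had a log2 fold change of -0.01 on adding MLN4924. With both drugs against control its log2 fold change was -0.75 (adjusted p = 0.00854). UBA2, of the SUMO E1, rose by 0.46 on adding MLN4924 (adjusted p = 0.00188). CDC34, higher with imatinib as given above, had a log2 fold change of -0.15 on adding MLN4924 (adjusted p = 0.181).

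Of 8 genes of ubiquitin and its relatives, 3 fell with imatinib and none rose, and on adding MLN4924 3 rose and 2 fell (medians -0.14, then 0.14). ISG15 fell by 0.42 on the log2 scale on adding MLN4924 (adjusted p = 0.0255). It was also lower with MLN4924 alone against control (log2 fold change -0.5, adjusted p = 0.0264). Of 16 APC/C genes, 3 rose and 4 fell with imatinib, then 6 rose and 3 fell (medians -0.10, then 0.04). The subunit ANAPC1 fell most with imatinib, by 0.96, and CDC20 rose most on adding MLN4924, by 0.66 (adjusted p = 5.58e-06). CDC20 was also higher with MLN4924 alone against control (log2 fold change 0.47, adjusted p = 0.000136), and its log2 fold change with imatinib was -0.17. Of 11 CTLH genes, partners of UBE2H, 5 rose and 2 fell with imatinib, then 2 rose and 3 fell (medians 0.10, then -0.01). YPEL5, a regulator of that ligase, rose by 2.06 (adjusted p = 2.31e-06) and then fell by 1.04 (adjusted p = 0.000217). Of 13 genes of degradation at the endoplasmic reticulum, partners of UBE2G2 and UBE2J2, 1 rose and 6 fell with imatinib, then 7 rose and 1 fell (medians -0.21, then 0.20), beside the 27.5% of all genes lower with imatinib and the 22.6% higher on adding MLN4924. AUP1, which recruits UBE2G2 to that membrane, fell by 0.73 with imatinib (adjusted p = 1.73e-05), and the ligase RNF5 rose by 0.37 (adjusted p = 0.000173).

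Of 12 SUMO ligase and protease genes, 2 rose and 4 fell with imatinib, then 5 rose and 1 fell (medians -0.14, then 0.18), led by the protease SENP3, which fell by 0.98 and then rose by 0.54. Of 8 partners of the RAD6 homologues, 2 rose and 2 fell with imatinib, then 1 rose (medians 0.08, then 0.09). RAD18, the ligase that places ubiquitin on PCNA, fell by 0.74 (adjusted p = 0.000151) and then rose by 0.46 (adjusted p = 0.00507). Of 10 ligases that work with UBE2N, 3 rose and 3 fell with imatinib, then 2 rose and 1 fell (medians -0.21, then 0.10). Among users of UBE2L3, 7 of 23 HECT ligase genes rose and 2 fell with imatinib, then 1 rose and 5 fell (medians 0.10, then -0.10). Of 14 RBR ligase genes, 12 were tested, of which 5 rose and 3 fell, then 1 rose and 3 fell (medians 0.26, then -0.07). CUL9 had the largest rise there, 1.46, and the largest fall on adding MLN4924, -1.27. Of 10 Fanconi anaemia genes, partners of UBE2T, 2 rose and none fell with imatinib, then 1 rose and 1 fell (medians 0.08, then 0.00). Of 8 other E2 and E2-like genes, 1 rose and 3 fell with imatinib, then 1 rose (medians 0.09, then 0.04).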

How the data were processed

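RNA sequencing of K562 cells in 4 groups of 3 libraries was used as deposited. The authors used fastp for trimming, HISAT2 for alignment to hg38 and StringTie for quantification, and deposited TPM per gene identifier. GRCh38 and featureCounts appear in the submitters' processing notes, yet no counts are in the table. Depth is unknown, values are given to 2 decimals, and a value of 0 can be a failed estimate. Names and positions came from GENCODE release 44 on GRCh38, and promoter windows from RefSeq on GRCh38.p14.

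TPM were read as log2(TPM + 1). Genes reaching 1 TPM in 3 or more libraries were fitted with limma 3.58.1 (trend) in R 4.3.3, one coefficient per group, all 12 libraries together. Benjamini-Hochberg adjustment ran over 15478 genes. Assembled loci (691) were left out. Tables were made with Python 3.11.15, numpy 2.4.6 and pandas 2.3.3, and plots with matplotlib 3.10.9. The fit was tested on simulated data. Genes given in every library are the 3 largest rises and 3 largest falls past the threshold in each of 6 comparisons and the 3 most abundant members. From each partner list at most the largest rise and fall is named, besides UBA1, UBA6 and CDC34. UBE2C, and the other genes named in counts of 5 or fewer, were named after their values were seen. A few genes that enter the counts are not reported here by name. The members and lists were chosen with earlier results of these data known.

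Alternatives were a pseudocount of 0.1, no filter, a limit of 5 TPM in 3 libraries, a block for the replicate number, median-of-ratios scaling, a fit of the compared libraries alone, and each library left out. The study's DESeq2 test needs counts and was not run.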

Additional observations from a re-analysis of the deposited data

Results flagged for a closer look

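By limma's interaction term, adjusted over 15478 genes, the effect of MLN4924 was called different with and without imatinib for 3 E2 genes. They were 9.68% of the E2 genes, against 16.4% of all genes tested. None of these calls held in all 17 alternatives, with UBE2G1 past the threshold in 16, UBE2G2 in 11 and UBE2H in 5. For UBE2G1 the term was 0.67 on the log2 scale (SE 0.16, adjusted p = 0.0212), with all 3 imatinib + MLN4924 libraries above all 3 imatinib libraries and all 3 MLN4924 libraries below all 3 control libraries. For UBE2G2 the term was 0.57 (SE 0.14, adjusted p = 0.0248), with the same order of libraries. For UBE2H the term was -0.64 (SE 0.20, adjusted p = 0.049), with all libraries that received MLN4924 above their counterparts without it, by a larger step without imatinib.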

How the results depend on the processing

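No call of the 12 E2 genes given in every library changed sign under the alternatives run. Of their 420 log2 fold changes under other settings 405 kept their side of the threshold, 10 lost it and 5 newly passed, and of 504 without a library 458 kept it, 35 lost it and 11 newly passed. Where no reason is given below, the cause was not tested. Leaving out each library gave 14 to 19 E2 genes called for imatinib against control, 2 to 3 for MLN4924 against control, 9 to 17 for imatinib + MLN4924 against imatinib, 1 to 3 against MLN4924, 3 to 7 against control and 1 to 9 for the interaction. For imatinib + MLN4924 against imatinib the count was 11 with no filter, which tests more genes, and 11 with only the libraries compared, which leaves fewer samples. For imatinib + MLN4924 against MLN4924 it was 2 with the limit at 5 TPM and 2 with median-of-ratios scaling, and for the interaction 1 with no filter and 2 with median-of-ratios scaling. Deviations of same-numbered libraries correlated at r from -0.059 to 0.185 and not above 0.1 in every pair, so the numbers were not taken as pairs, and not every library correlated best with its own number. The highest r, 0.185, was that of replicate 3 of imatinib and of imatinib + MLN4924 (-0.089 at most with other numbers), the libraries with the highest summed E2 level of their groups (2109.9 and 2569.8 TPM). With the replicate number as a block, 16, 3, 16, 1, 5 and 2 E2 genes were called, in the order of the 6 comparisons above. The depth of the libraries is unknown, so what low genes such as UBE2C and UBE2E2 can show is not known.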

Other observations

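UBE2Q2P6, a pseudogene name that the rule leaves out, was listed at 38.2 TPM in imatinib replicate 1, at 5.17 TPM in control replicate 1 and at 0.74 TPM or less in the other 10 libraries. UBE2Q2P1, another such name, lay between 3.02 and 11.8 TPM, beside 7.07 to 9.70 TPM for UBE2Q2, so reads of this family may be split between copies. Of the 46 pseudogene names left out, 6 reached 1 TPM in any library.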
